A study of Danio rerio with 5 samples.

Results

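The vertebrate mitochondrial genome carries a small set of protein genes, and each of them encodes a subunit of the respiratory chain or of the ATP synthase. Described here are 10 of these genes in single sorted cells of zebrafish embryos: MT-ND1 (ENSDARG00000063895), MT-ND2 (ENSDARG00000063899), MT-ND3 (ENSDARG00000063914), MT-ND4 (ENSDARG00000063917) and MT-ND5 (ENSDARG00000063921) of complex I, MT-CYB (ENSDARG00000063924) of complex III, MT-CO1 (ENSDARG00000063905), MT-CO2 (ENSDARG00000063908) and MT-CO3 (ENSDARG00000063912) of complex IV, and MT-ATP6 (ENSDARG00000063911) of complex V. They were taken by gene symbol and not by a cut on measured values, although earlier results of these data were known. All 10 were found on every plate among the 23628 genes of the tables. The files give no positions, so none are printed. The genes lie on the mitochondrial chromosome, where MT-ATP6 adjoins mt-atp8, MT-ND4 adjoins mt-nd4l and MT-ND5 adjoins MT-ND6. Whether reads were assigned by strand is not given in the sources used here, so reads of such neighbours may be mixed.

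The embryos carried the runx1+23:mCherry transgene, a reporter driven by an enhancer of runx1 that is used to label blood stem and progenitor cells. They received either the irf8 morpholino, which blocks a transcription factor needed to make macrophages, or the standard control morpholino (std), and were dissociated at 3 days post-fertilization. Live mCherry+ cells of both groups were sorted singly onto 5 plates of 384 wells for SORT-seq, a method that counts transcripts by unique molecular identifiers (UMIs). On every plate wells 1 to 188 held std cells and wells 189 to 384 held irf8 cells, so that well position and morpholino cannot be told apart.

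Wells with at least 1000 estimated transcripts were kept, which left 466 of 980 irf8 wells and 467 of 940 std wells. Median depth was 6910 transcripts in irf8 wells and 4763 in std wells, and the 10 sums over the kept wells of a plate and morpholino held 91151 to 2078384 transcripts from 10 to 151 wells. The sorted cells were labelled as HSPCs (hematopoietic stem and progenitor cells), but clustering placed 92 of the 933 kept wells in a cluster with HSPC markers (MYB, a stem cell regulator, and CCR9, a lymphoid chemokine receptor, both led it), against 366 erythroid-like, 96 cartilage and connective tissue-like, 90 muscle-like and 84 neural and endocrine-like wells. The rest were 50 epidermis-like, 17 thrombocyte-like and 13 neutrophil-like wells, and 3 clusters of 62, 43 and 20 wells that were left without a name. Summed, the HSPC markers were 0.413% of transcripts in the HSPC-like wells and 0.0642% in erythroid-like wells. They were 0.548% in thrombocyte-like, 0.387% in neural and endocrine-like and 0.302% in cartilage and connective tissue-like wells. Their sum was thus not particular to the HSPC-like wells, and that name is provisional. The irf8 transcript itself was counted 12 times in kept irf8 wells and 4 times in kept std wells, and a morpholino need not lower its target's RNA, so this does not check the labels. Macrophage markers were near 0 in both groups, at 0.00449% of transcripts in irf8 sums and 0.00683% in std sums (means of 5 plates). Plates 3 and 5 gave few kept wells. Single wells held 28.5% of the irf8 sum and 48.6% of the std sum of plate 3. On plate 5 they held 37.3% of the irf8 sum and 19.4% of the std sum.

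Electrons from NADH enter the chain at complex I, pass through complex III and cytochrome c to complex IV, which reduces oxygen, and the proton gradient that these complexes build drives ATP synthesis by complex V. The mitochondrial genes are read as long transcripts from a circular chromosome present in many copies per cell, and the mature mRNAs are cut from them and then stabilized or degraded one by one, so that neighbouring genes can differ in level. Because the mRNAs carry poly(A) tails, they are caught by the same primers as nuclear mRNAs. Erythroid cells lose their mitochondria late in maturation in mammals, while fish red cells keep theirs.

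All 10 genes together made up a small part of the RNA on every plate. Their share of transcripts was 5.23%, 4.32%, 8.06%, 4.62% and 4.21% in irf8 morphants on plates 1 to 5, against 4.26%, 4.09%, 5.72%, 3.91% and 4.56% in std controls. The share was thus higher in irf8 morphants on 4 of 5 plates, plate 3 was the highest in both groups, and the ranges overlapped. The means were 5.29% ± 1.60 in irf8 morphants and 4.51% ± 0.719 in std controls (SD, n = 5 plates), a difference of 0.777 ± 1.01 percentage points per plate that is smaller than its own spread. Plate 3 carried much of it: without that plate the difference was 0.386 ± 0.585 percentage points. Globins were only 0.127% of the irf8 sum and 0.00743% of the std sum of plate 3. Muscle markers were 12.5% of its irf8 sum and 0.586% of its std sum. The part of these in the difference was not tested. These sums add up wells of all kinds of cell, so by themselves they do not separate the mix of kinds from levels within a kind. The mix differed: there were 26 irf8 and 66 std HSPC-like wells, 154 and 212 erythroid-like wells, and 69 and 21 muscle-like wells. Cartilage and connective tissue-like wells numbered 48 irf8 and 48 std, and neural and endocrine-like wells 48 and 36. The clusters without a name, which are also part of these sums, held 53 irf8 and 9 std, 31 and 12, and 7 and 13 wells. Comparisons within a kind are given below.

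**Figure D1:**
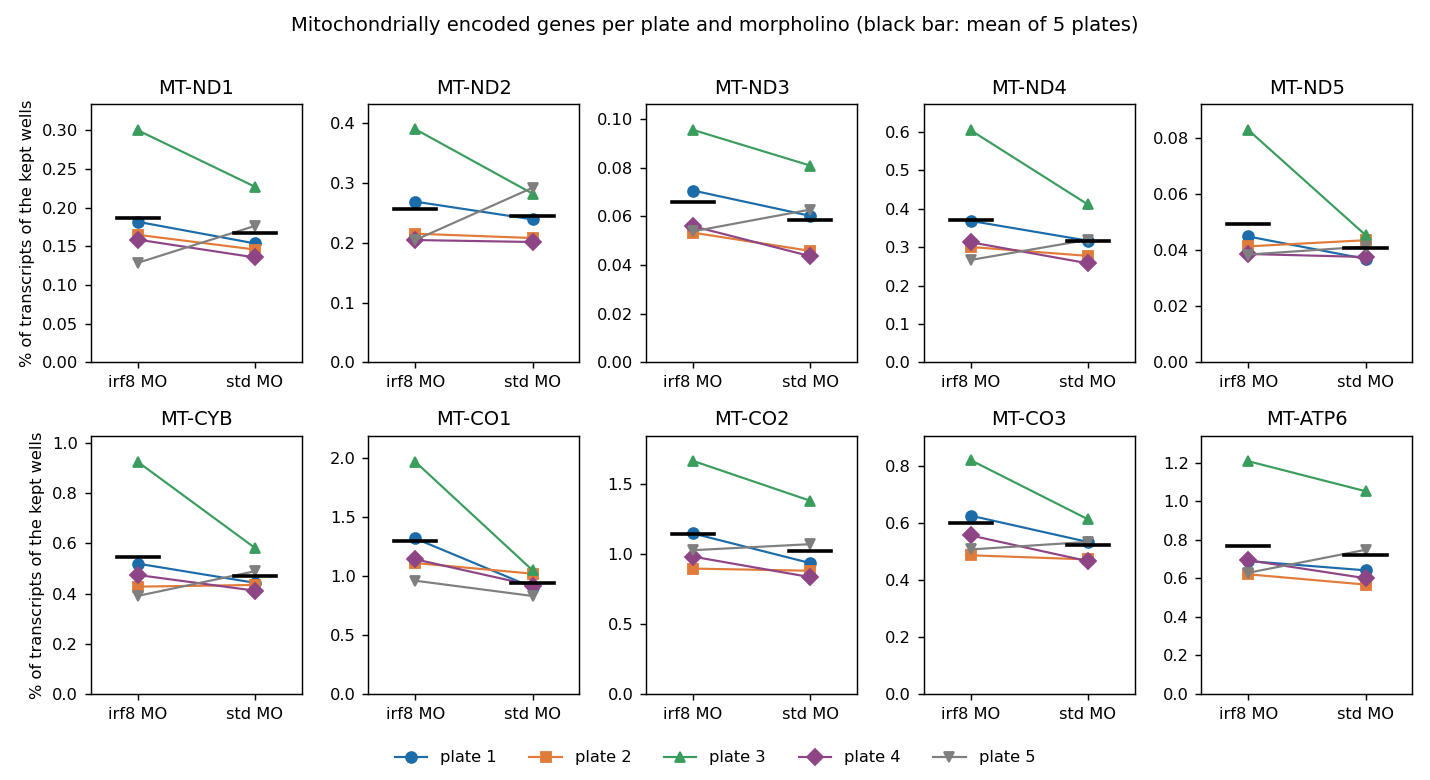
Share of transcripts (percent, linear axis from 0) of each of the 10 mitochondrially encoded genes in the kept wells of each plate, with irf8 morphants on the left and std controls on the right of each panel. A line joins the 2 sums of a plate and the black bars are the means of 5 plates. All 5 lines of MT-CO1 are higher at irf8 morphants, and plate 3 lay highest among the irf8 sums for every gene.

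MT-CO1, which holds the heme and copper center where complex IV reduces oxygen, was the gene for which all plates went the same way. Its share was 1.32%, 1.11%, 1.97%, 1.14% and 0.960% in irf8 morphants on plates 1 to 5, against 0.905%, 1.02%, 1.05%, 0.920% and 0.831% in std controls. Every plate was higher in irf8 morphants, although the plate 5 irf8 sum lay below the highest std sums, so the ranges overlapped. The mean was 1.3% ± 0.395 in irf8 morphants and 0.945% ± 0.0891 in std controls (SD, n = 5). In edgeR's quasi-likelihood test over 7141 genes, with the plate as a block, the log2 fold change of MT-CO1 was 0.39 (SE 0.20) with an adjusted p of 0.60, which does not pass the threshold of 0.05. The gene passed only when no filter on low counts was applied (log2 fold change 0.41, adjusted p = 0.0345, edgeR), a setting in which 1.52% of 23467 genes passed. Over 15 alternatives the adjusted p ran between 0.0345 and 0.909.

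The other complex IV genes did not pass the test either. MT-CO2, which takes up electrons from cytochrome c, averaged 1.14% ± 0.305 of transcripts in irf8 morphants and 1.02% ± 0.220 in std controls. MT-CO3, also a core subunit, averaged 0.600% ± 0.135 in irf8 morphants and 0.525% ± 0.0597 in std controls (SD, n = 5 each). Both stood higher in irf8 morphants on all plates but plate 5. Their log2 fold changes were 0.12 (SE 0.18) and 0.15 (SE 0.18).

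MT-CYB, the cytochrome b of complex III, had the higher share in irf8 morphants on plates 1, 3 and 4. Its share was 0.519%, 0.427%, 0.925%, 0.474% and 0.390% in irf8 morphants, against 0.443%, 0.434%, 0.582%, 0.411% and 0.489% in std controls. MT-ATP6, the ATP synthase subunit next to which protons pass through the membrane, was higher on 4 of 5 plates, at 0.690%, 0.621%, 1.21%, 0.693% and 0.629% in irf8 morphants against 0.641%, 0.567%, 1.05%, 0.600% and 0.748% in std controls. For both genes the irf8 sum of plate 3 stood apart from the other 4 irf8 sums, and the log2 fold changes were 0.12 (SE 0.22) and 0.05 (SE 0.19).

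The complex I genes, whose products form the membrane arm that pumps protons, had lower shares. MT-ND1 averaged 0.187% ± 0.0662 in irf8 morphants and 0.168% ± 0.0364 in std controls, and MT-ND2 0.257% ± 0.0792 in irf8 morphants and 0.245% ± 0.0416 in std controls. MT-ND4 averaged 0.371% ± 0.136 in irf8 morphants and 0.316% ± 0.0590 in std controls (SD, n = 5 each). The irf8 sum was the higher one on 4 of 5 plates for MT-ND1, MT-ND2, MT-ND3 and MT-ND4, and on 3 for MT-ND5. The log2 fold changes of these 5 genes lay between 0.01 (MT-ND2) and 0.18 (MT-ND5).

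By edgeR, 0 of the 10 genes passed an adjusted p of 0.05 over all kept cells, and 0 had an unadjusted p under 0.05. Of all 7141 genes tested, 0.0140% passed, which is the single gene si:dkey-238c7.12 (log2 fold change -2.08), of unstated function in the files. DESeq2 called 3.02% of all genes and again 0 of the 10, of which 1 had an unadjusted p under 0.05. Of the fits that left out 1 plate, edgeR called 1 gene without plate 5 and 0 without any of the other 4. The median log2 fold change of the 10 genes was 0.13, beside -0.03 over all genes. The other mitochondrially encoded genes in the tables did not pass: mt-atp8, the accessory subunit beside MT-ATP6, had a log2 fold change of -0.03, mt-nd4l one of -0.04, and MT-ND6, which is encoded on the opposite strand from the rest, one of 0.33 (SE 0.28) and was higher on 5 of 5 plates at shares of 0.0024% ± 0.00144 in irf8 morphants and 0.00165% ± 0.000669 in std controls.

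Within the mitochondrial pool, the parts taken by MT-CO1 and MT-ND2 differed in the same direction on every plate, and those of the other genes did not. MT-CO1 was 25.2%, 25.7%, 24.4%, 24.7% and 22.8% of the transcripts of the 10 genes in irf8 morphants on plates 1 to 5, against 21.2%, 24.9%, 18.3%, 23.5% and 18.2% in std controls. It took a larger part in irf8 morphants on 5 of 5 plates, with a mean of 24.6% ± 1.09 in irf8 morphants and 21.2% ± 3.02 in std controls and a difference of 3.35 ± 2.27 percentage points. The ranges overlapped, and no test was run because the parts of one total are bound to each other. Leaving out 1 plate at a time gave differences of 2.66 to 3.98 percentage points. The part taken by MT-ND2 was lower in irf8 morphants on all plates, at 4.86% ± 0.263 in irf8 morphants and 5.44% ± 0.597 in std controls, and that of MT-ATP6 was lower on all but 1 plate, at 14.5% ± 0.786 in irf8 morphants and 15.8% ± 1.70 in std controls. Those of MT-CO2, MT-CYB and MT-ND1 were higher in irf8 morphants on 1 of 5 plates. Those of MT-CO3, MT-ND3 and MT-ND5 were higher on 2 of 5, and that of MT-ND4 on 3 of 5.

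The nuclear genome encodes the other subunits of these complexes and all those of complex II. Of 83 nuclear-encoded subunits of complexes I to V found in the tables, 75 were tested and 0 passed over all kept cells by edgeR (0.0140% of all genes passed), at a median of -0.12 on the log2 scale, with 26 of 75 above 0. By complex, the median was -0.11 for 35 genes of complex I, 0.02 for 4 of complex II, -0.05 for 8 of complex III, -0.24 for 10 of complex IV and -0.13 for 18 of complex V. Those with the smallest p were cox6b1, a small complex IV subunit (log2 fold change -1.35, SE 0.32, unadjusted p = 0.00303, adjusted p = 0.30 by edgeR), NDUFB1 of complex I (-0.59, SE 0.21) and atp5mea of complex V (-0.51, SE 0.20). The summed share of all 83 nuclear-encoded subunits was 1.4% ± 0.179 in irf8 morphants and 1.47% ± 0.210 in std controls.

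Genes that copy, read or regulate the mitochondrial genome were sparsely counted. Only 4 of 11 genes for mtDNA copying and transcription had enough counts for the test, and mterf3, which in mice represses mitochondrial transcription, had the smallest p (log2 fold change -2.32, SE 0.50, adjusted p = 0.29 by edgeR). TFAM, which packages mtDNA and starts its transcription, had a log2 fold change of 0.21 (SE 0.28) and SSBP1, the single-strand binding protein of mtDNA copying, one of -0.40 (SE 0.37). Of 13 genes for mitochondrial RNA processing and stability 5 were tested, among them LRPPRC, which stabilizes mitochondrial mRNAs (log2 fold change -0.40, SE 0.48), the mitochondrial RNA-binding protein fastkd2 (-0.64, SE 0.32) and HSD17B10, a subunit of the mitochondrial tRNA processing enzyme (0.24, SE 0.28). The biogenesis regulators pprc1 (-0.45), NRF1 (-0.15) and GABPA (-0.06) and the carriers SLC25A5 (-0.47), SLC25A3 (-0.25) and SLC25A4 (2.16, SE 1.96), which move ADP, ATP or phosphate across the inner membrane, did not pass either.

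The levels of other gene groups are given beside those of the 10 genes, and their part in the results was not tested. By edgeR 0 genes of the ribosomal, stress and globin lists passed over all kept cells. Cytosolic ribosomal proteins made up 9.56% ± 2.58 of transcripts in irf8 morphants and 13.9% ± 0.962 in std controls, and every plate was lower in irf8 morphants. Of the 71 tested, all 71 had a log2 fold change below 0, with a median of -0.60, and 0 passed. RPL22L1 (-1.39), RPS28 (-0.96) and RPS19 (-0.88) had the smallest p among them. Genes of dissociation and heat stress made up 2.96% ± 0.401 in irf8 morphants and 2.70% ± 0.261 in std controls, and the median over 20 of these genes was 0.28 on the log2 scale. Muscle markers made up 6.02% ± 5.66 in irf8 morphants and 2.01% ± 2.31 in std controls, higher on 3 of 5 plates, and without the muscle-like wells the difference in the share of the 10 genes was 0.679 ± 1.02 percentage points. Globins made up 13.3% ± 12.1 in irf8 morphants and 12.9% ± 11.1 in std controls, a difference of 0.409 ± 2.63 percentage points per plate, with hbae5 (-1.35), hbbe3 (2.23) and HBE1 (-0.75) of smallest p.

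Within one kind of cell, the comparison was made where both morpholinos had enough wells on a plate. Kinds were named from markers in a clustering that left out all 13 mitochondrially encoded genes. Erythroid-like cells had at least 10 wells of each morpholino on plates 1, 2 and 4, namely 37, 46 and 71 irf8 wells and 78, 58 and 76 std wells. Erythroid-like cells of plates 1 and 2 were mostly of one cluster and those of plate 4 all of another, which also held 6 irf8 wells of plate 1 and 5 of plate 2 and no std well of those plates. Within the first cluster alone, MT-CO1 was 0.591% and 0.609% of transcripts in irf8 cells of plates 1 and 2, against 0.566% and 0.351% in std cells.

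In erythroid-like cells the 3 complex IV genes had higher shares in irf8 morphants on plates 1, 2 and 4. The test called them in a fit that called 21.2% of all genes, and not in every setting. MT-CO1 was 0.614%, 0.635% and 0.785% of transcripts in irf8 erythroid-like cells on plates 1, 2 and 4, against 0.566%, 0.351% and 0.409% in std erythroid-like cells. MT-CO2 was 0.778%, 0.644% and 0.787% in irf8 cells, against 0.600%, 0.471% and 0.506% in std cells. MT-CO3 was 0.387%, 0.356% and 0.433% in irf8 cells, against 0.326%, 0.226% and 0.281% in std cells. For each of the 3 genes the irf8 sums lay above all std sums, and plate 1 had the smallest difference for MT-CO1 and MT-CO3. The log2 fold changes were 0.59 (SE 0.14, adjusted p = 0.00481) for MT-CO1, 0.44 (SE 0.11, adjusted p = 0.00781) for MT-CO2 and 0.46 (SE 0.13, adjusted p = 0.0139) for MT-CO3 in edgeR's quasi-likelihood test over 1366 genes. So 3 of the 10 genes were called, all higher, where 21.2% of all genes tested were called and 11.1% were called higher.

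**Figure D2:**
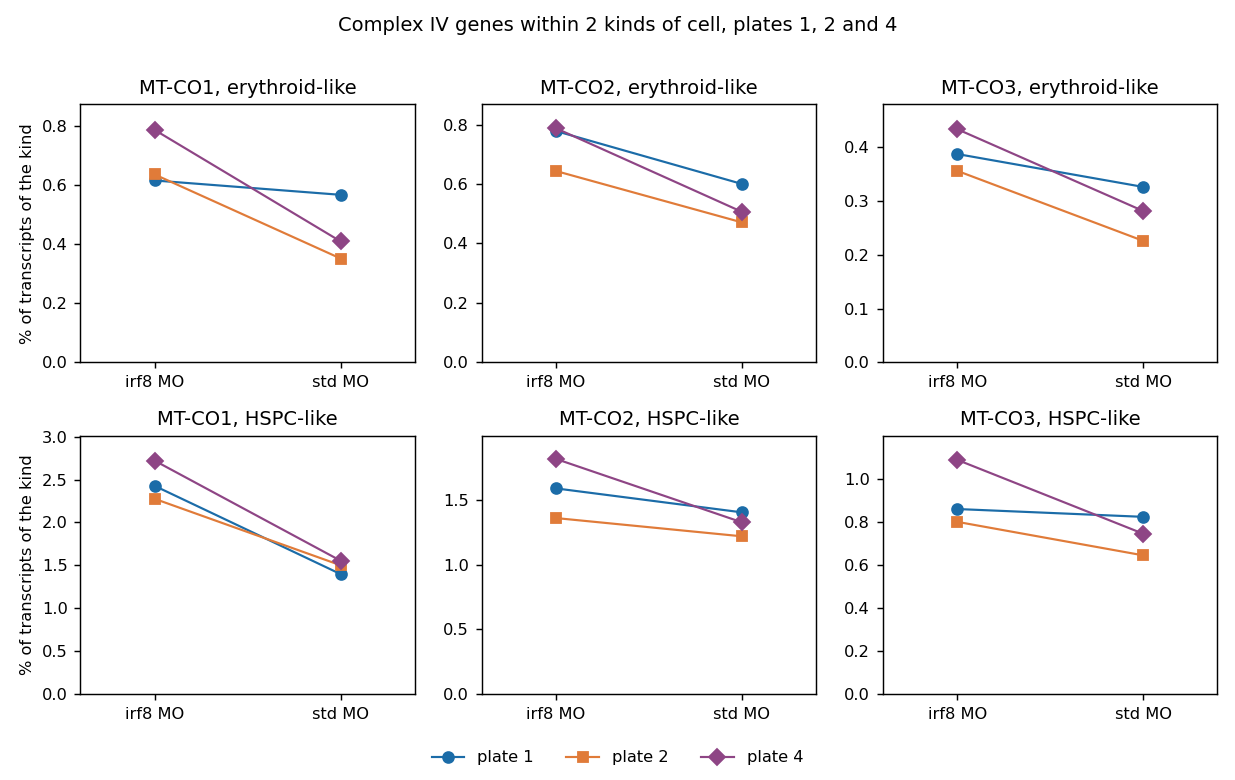
Share of transcripts (percent, linear axis from 0) of MT-CO1, MT-CO2 and MT-CO3 in erythroid-like cells (top) and HSPC-like cells (bottom) on plates 1, 2 and 4, with irf8 morphants on the left and std controls on the right. Every line joins the 2 sums of a plate and every one is higher in irf8 morphants, by least for MT-CO3 in the HSPC-like cells of plate 1 (0.859% in irf8 cells, 0.823% in std cells).

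The complex IV calls rested on the setting and on plate 2. Without plate 2 none of the 3 genes passed (MT-CO1 0.46, adjusted p = 0.13; MT-CO2 0.44, adjusted p = 0.15; MT-CO3 0.37, adjusted p = 0.28), and 162 of all genes did, against 290 with it. With no replicate block 18.4% of all genes were called and 0 of the 10, the smallest adjusted p among them being 0.0519 (edgeR). With DESeq2 8.64% of all genes were called and again 0 of the 10, the smallest adjusted p being 0.0671. In both of these settings 3 of the 10 had an unadjusted p under 0.05, and without plate 2 it was 2. Without plate 1 or without plate 4 all 3 passed, as they did with library size scaling in place of TMM factors (21.6% of all genes called).

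The remaining genes were not called in erythroid-like cells. MT-CYB had a log2 fold change of 0.25 (SE 0.14), MT-ND3 of 0.41 (SE 0.22, adjusted p = 0.21 by edgeR), MT-ND4 of 0.18 (SE 0.14) and MT-ATP6 of 0.12 (SE 0.13). MT-ND1 was 0.0860%, 0.0813% and 0.0907% in irf8 cells of plates 1, 2 and 4, against 0.143%, 0.0697% and 0.0758% in std cells, so that plate 1 went the other way from plates 2 and 4, and its log2 fold change was -0.13 (SE 0.19). The 10 genes together were 3.03% ± 0.248 of transcripts in irf8 erythroid-like cells and 2.34% ± 0.520 in std erythroid-like cells (SD, n = 3 plates). Whether MT-CO1 changed by more than MT-ND1 or MT-ATP6 was not tested.

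Beside the complex IV genes in erythroid-like cells stood the following values, whose part in the result was not tested. Median depth was 5706 ± 1062 transcripts per well in irf8 cells and 3847 ± 146 in std cells. Ribosomal proteins were 4.19% ± 0.424 in irf8 cells and 6.01% ± 0.178 in std cells, and 45 of 70 tested were called lower, where 10.1% of all genes were. Stress genes were 3.06% ± 0.632 in irf8 cells and 1.94% ± 0.302 in std cells. Of 12 tested 6 were called higher and 1 lower, where 11.1% of all genes were called higher and 10.1% lower. Globins were 53.0% ± 2.53 in irf8 cells and 55.1% ± 2.38 in std cells. Leaving them out of the total, the 10 genes were 6.45% ± 0.499 in irf8 cells and 5.24% ± 1.33 in std cells. Nuclear-encoded respiratory subunits were 0.628% ± 0.0693 in irf8 cells and 0.552% ± 0.00907 in std cells. Of 50 tested 1 was called higher and 1 lower, where 21.2% of all genes were called in either direction. The regulator mterf3 was among the 10 leading genes of one of the erythroid clusters, so its difference within these cells is not used.

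HSPC-like cells had at least 10 wells of each morpholino on plate 2 alone, so the test used sums of at least 5 wells. These were 6, 11 and 8 irf8 wells and 31, 21 and 14 std wells on plates 1, 2 and 4. MT-CO1 rose: it was 2.43%, 2.28% and 2.72% of transcripts in irf8 HSPC-like cells, against 1.4%, 1.5% and 1.55% in std HSPC-like cells. The groups did not overlap, and the lowest irf8 sum was well above the highest std sum. The log2 fold change was 0.72 (SE 0.083, adjusted p = 0.00649, edgeR), and MT-CO1 had the smallest p of 1795 genes. It was the 1 gene of the 10 that was called, where 1.28% of all genes were called and 0.334% were called higher. MT-CO1 was still called with no replicate block, with DESeq2 and with library size scaling, and without plate 1 or plate 2, but not without plate 4 (log2 fold change 0.57, adjusted p = 0.0904, edgeR).

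The other genes had log2 fold changes above 0 in HSPC-like cells without passing the test, and that of MT-ATP6 was -0.036 without plate 4. MT-CYB, at 0.832%, 0.795% and 1.1% in irf8 cells on plates 1, 2 and 4 against 0.666%, 0.616% and 0.702% in std cells, had a log2 fold change of 0.43 (SE 0.11, adjusted p = 0.0900 by edgeR). MT-ND1 had 0.44 (SE 0.11), MT-ND4 0.54 (SE 0.14) and MT-ND5 0.50 (SE 0.20). MT-CO2 had 0.24 (SE 0.096), MT-CO3 0.29 (SE 0.12), MT-ATP6 0.27 (SE 0.14), MT-ND2 0.23 (SE 0.12) and MT-ND3 0.32 (SE 0.17). Of the 10 genes 7 had an unadjusted p under 0.05, as did 211 of all 1795 genes. Without plate 1, 7 of the 10 and 108 of all 1910 genes were called, against 1 of the 10 and 23 of all genes with it, and without plate 4, 0 of the 10 and 23 of all genes. All 10 together were 7.82%, 7.61% and 9.91% of transcripts in irf8 HSPC-like cells, against 6.25%, 5.81% and 6.41% in std HSPC-like cells.

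**Figure D3:**
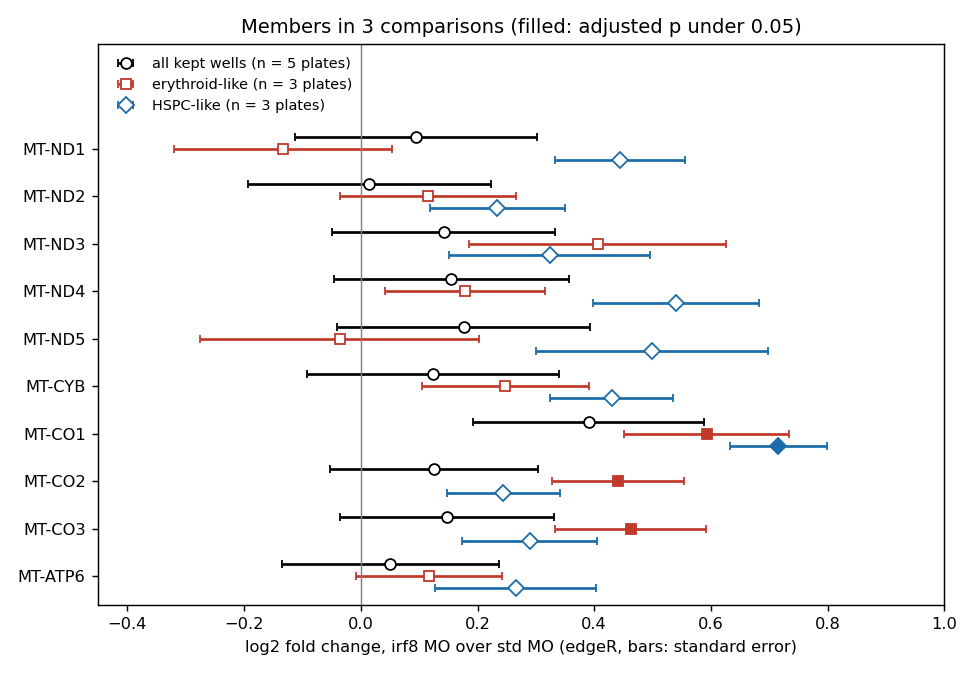
Log2 fold change, irf8 over std, of the 10 genes (edgeR, bars are standard errors) over all kept wells (n = 5 plates), in erythroid-like cells (n = 3) and in HSPC-like cells (n = 3). The standard errors were derived from the F statistic of the test. Filled symbols passed an adjusted p of 0.05: MT-CO1, MT-CO2 and MT-CO3 in erythroid-like cells and MT-CO1 in HSPC-like cells.

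In HSPC-like cells MT-CO1 was 29.4% ± 1.82 of the transcripts of the 10 genes in irf8 cells and 24.1% ± 1.73 in std cells, and in erythroid-like cells 22.4% ± 2.31 in irf8 cells and 18.8% ± 0.538 in std cells (SD, n = 3 plates each). Both were higher in irf8 cells on 3 of 3 plates. Beside these values in HSPC-like cells, ribosomal proteins were 19.4% ± 1.83 in irf8 cells and 24.8% ± 0.268 in std cells, with 11 of 71 called lower, where 0.947% of all genes were. Stress genes were 2.69% ± 0.327 in irf8 cells and 2.09% ± 0.371 in std cells, with 2 of 11 called higher, where 0.334% of all genes were. Nuclear respiratory subunits were 2.42% ± 0.332 in irf8 cells and 2.37% ± 0.248 in std cells, with 0 of 72 called by edgeR (1.28% of all genes), and median depth was 11066 ± 3844 transcripts in irf8 cells and 9373 ± 1316 in std cells. Their part in the result was not tested.

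Cartilage and connective tissue-like and neural and endocrine-like cells gave no called gene among the 10. In cartilage and connective tissue-like cells, the 10 genes together were 5.17%, 8.70% and 6.23% of transcripts in irf8 cells on plates 2, 3 and 4, against 4.14%, 6.85% and 4.03% in std cells (sums of at least 8 wells). Each plate was higher in irf8 cells, the levels of plate 3 were the highest in both groups, and median depth was 17901 transcripts in irf8 cells and 6196 in std cells. MT-CO1 had a log2 fold change of 0.46 (SE 0.13) and MT-CYB of 0.50 (SE 0.14) there. By the test 0 of the 10 genes and 0 of all 1897 genes passed by edgeR (0% called), 4 of the 10 and 226 of all genes had an unadjusted p under 0.05, and DESeq2 called 1.05% of all genes and 0 of the 10. In neural and endocrine-like cells of plates 1, 2 and 4 the 10 genes were 5.63%, 5.41% and 5.76% in irf8 cells, against 3.62%, 6.71% and 4.22% in std cells, so that plate 2 went the other way. MT-CO1 had a log2 fold change of 0.28 (SE 0.42), and 0 of the 10 passed by edgeR (0.0480% of 2085 genes were called), with 0 at an unadjusted p under 0.05 and 0 called by DESeq2 (0.144% of all genes). Muscle-like cells had at least 5 wells of both morpholinos on plate 3 alone, where the share was 8.75% in 30 irf8 wells and 19.5% in 9 std wells, a pair of sums with no replicate. Other single pairs without a replicate are given as shares of the transcripts that were not globin. In epidermis-like cells of plate 2 the 10 genes were 2.66% in irf8 cells and 3.40% in std cells. In the unnamed cluster of 62 wells they were 4.99% in irf8 and 5.07% in std cells of plate 2. In the unnamed cluster of 43 wells they were 8.54% in irf8 and 2.69% in std cells of plate 1. Whether the effect of the irf8 morpholino on any of the 10 genes differed between kinds of cell was not tested.

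The kinds of cell differed widely in the share of RNA from the 10 genes. Over both morpholinos and plates with at least 10 wells, the share was 6.84% ± 0.560 in HSPC-like cells (n = 3 plates), 6.73% ± 2.78 in muscle-like cells (n = 3), 5.68% ± 1.39 in cartilage and connective tissue-like cells (n = 5), 5.54% ± 0.532 in neural and endocrine-like cells (n = 5), 4.01% ± 1.25 in epidermis-like cells (n = 3) and 2.73% ± 0.329 in erythroid-like cells (n = 3). The plates of erythroid-like cells all lay below those of HSPC-like, muscle-like, cartilage and neural cells, those of HSPC-like cells above those of neural and epidermis-like cells, and those of neural cells above those of epidermis-like cells, while every other pair of these kinds overlapped. On plates 1, 2 and 4 the share was 6.57%, 6.46% and 7.48% in HSPC-like cells, against 2.99%, 2.36% and 2.85% in erythroid-like cells, without overlap. Muscle-like cells varied most, with 9.39% on plate 3 and 3.84% on plate 4. The epidermis-like value of plate 3 rested largely on 1 std well of 287732 transcripts. The sum of that kind and plate held 429559 after the filter on low counts.

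Much of the erythroid RNA was globin mRNA, at 54.0% of transcripts (51.0% to 56.2% over plates), and the order of the kinds depended on whether it was counted. As a share of the transcripts that were not globin, the 10 genes were 6.88% ± 0.564 in HSPC-like cells, 7.14% ± 2.68 in muscle-like cells, 6.12% ± 1.21 in cartilage and connective tissue-like cells, 6.13% ± 0.550 in neural and endocrine-like cells, 4.33% ± 1.37 in epidermis-like cells and 5.95% ± 0.819 in erythroid-like cells. On this scale erythroid-like cells, at 6.82%, 5.2% and 5.81% on plates 1, 2 and 4, overlapped with HSPC-like cells, at 6.61%, 6.50% and 7.53%.

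**Figure D4:**
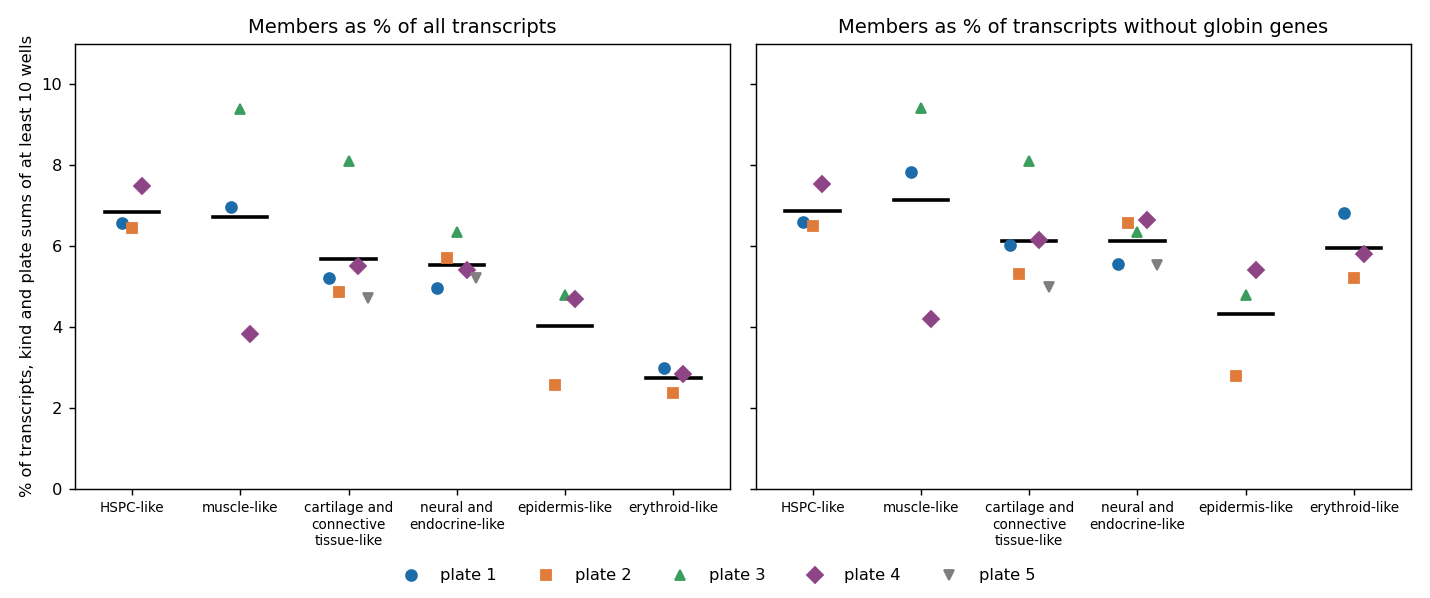
Summed share of the 10 genes (percent, linear axis from 0) by kind of cell, 1 point per plate with at least 10 wells and a black bar at the mean, out of all transcripts (left) and out of transcripts without globin genes (right). Erythroid-like cells lie lowest on the left, with a mean of 2.73%, and within the range of the other kinds on the right, with a mean of 5.95%.

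The test between kinds followed the same choice. In edgeR with TMM factors, which scaled the erythroid-like sums by 0.391 to 0.430 and the HSPC-like sums by 1.09 to 1.12, 0 of the 10 genes differed between HSPC-like and erythroid-like cells, where 32.7% of 6602 genes were called. None of the 10 had an unadjusted p under 0.05, and DESeq2 called 0 of the 10 and 32.9% of all genes. With library size scaling all 10 were called higher in HSPC-like cells, with a median of 1.4 on the log2 scale, where 41.8% of all genes were called higher and the median of all genes was 1.21 (-0.11 with TMM). Muscle-like cells gave 0 called genes of the 10 against erythroid-like cells with TMM (24.1% of all genes called, 2 of the 10 at an unadjusted p under 0.05, and 1 called by DESeq2 with 24.0% of all genes), and 10 called higher with library size scaling, where 25.3% of all genes were called higher.

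In cartilage and neural cells the sign of the differences followed the scaling, which shifted the median of all genes as well, so the sign by itself says nothing particular to the 10 genes. In cartilage and connective tissue-like cells 4 of the 10 genes were lower than in erythroid-like cells with TMM factors and higher with library size scaling, where 35.2% of all genes were called with TMM and 13.8% called lower. These were MT-CO2 (log2 fold change -0.70, SE 0.19, with TMM and 0.84 with library size scaling), MT-CO3 (-0.62 and 0.92), MT-ATP6 (-0.68 and 0.87) and MT-ND4 (-0.80 and 0.75). In neural and endocrine-like cells 5 of the 10 were lower with TMM and higher with library size scaling, where 35.1% of all genes were called with TMM and 15.4% called lower: MT-CO2 (-0.79 and 0.88), MT-CO3 (-0.77 and 0.90), MT-CYB (-0.57 and 1.11), MT-ATP6 (-0.85 and 0.83) and MT-ND4 (-0.94 and 0.75). The median of all genes was 0.39 with TMM and 1.87 with library size scaling in cartilage cells, and 0.26 with TMM and 1.84 with library size scaling in neural cells, so the median of the 10 genes, at -0.50 and 1.05 in cartilage cells and at -0.55 and 1.13 in neural cells, lay below it under both. With library size scaling all 10 were called higher in both kinds, where 65.6% of all genes were called higher in cartilage cells and 62.7% in neural cells. Without plate 1, 0 of the 10 were called with TMM in either kind, where 1641 of 7424 genes were called in cartilage cells and 1515 in neural cells. Without plate 2, 1 of the 10 and 1467 of 7017 genes were called in cartilage cells, and 4 of the 10 and 1417 of all genes in neural cells. Clustering at resolution 2 left 0 of the 10 and 1503 of 5306 genes called in cartilage cells, and 1 of the 10 and 1629 of all genes in neural cells. Leaving out plate 3 raised the number to 8 of the 10 in cartilage cells, with 2404 of 7203 genes called, and leaving out plate 5 to 8 of the 10 in neural cells, with 2283 of 6240. Since the clusters were built from the other genes, the share of genes called between kinds is no chance level.

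Within the pool, the kinds differed in make-up. MT-CO1 was 25.9% ± 1.56 of the transcripts of the 10 genes in HSPC-like cells, 24.1% ± 2.77 in cartilage and connective tissue-like cells, 23.6% ± 3.12 in neural and endocrine-like cells, 23.3% ± 1.27 in muscle-like cells, 23.3% ± 4.36 in epidermis-like cells and 21.2% ± 1.51 in erythroid-like cells. The gap between neighbours in this order was smaller than the larger SD of each pair. MT-ND4 was 6.31% ± 0.0282 of the pool in HSPC-like cells and 8.25% ± 1.16 in erythroid-like cells, and MT-CYB 10.7% ± 0.261 in HSPC-like cells and 9.36% ± 0.217 in erythroid-like cells (SD, n = 3 plates each). MT-ND5 was 1.01% ± 0.269 in HSPC-like cells and 0.702% ± 0.0571 in erythroid-like cells.

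Single wells spread over a wide range. The share of the 10 genes had a median of 3.55% over 933 kept wells, with a lowest well at 0.184% and a highest at 52.4%, and the median was 4.04% in irf8 wells and 2.72% in std wells. By kind the median was 8.75% in muscle-like wells, 6.50% in HSPC-like wells, 5.99% in thrombocyte-like wells, 5.19% in neutrophil-like wells, 5.12% in neural and endocrine-like wells, 4.88% in cartilage and connective tissue-like wells, 4.38% in epidermis-like wells and 2.12% in erythroid-like wells. A share above 20% was found in 19 wells, of which 14 were muscle-like. Plate 3 had the highest medians, at 9.93% in irf8 wells and 8.61% in std wells, and 6 irf8 and 4 std wells above 20%. The highest well of all was a muscle-like std well of plate 3 with 1110 transcripts. When the wells of each plate were split into 3 parts by depth, the median was 4.93% in the deepest part, 2.96% in the middle part and 2.78% in the shallowest part. Of the wells above 20%, 13 were in the shallowest part, 5 in the middle part and 1 in the deepest part. Depth, plate and kind were not separated here. Wells of one plate are not replicates of a condition, so these medians are descriptions.

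**Figure D5:**
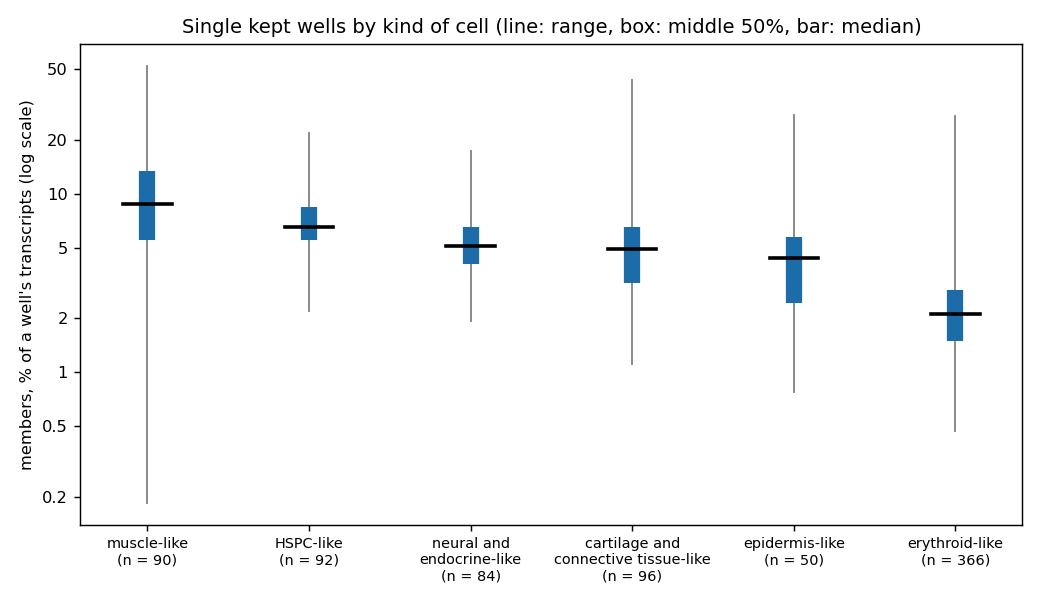
Share of the 10 genes in single kept wells (percent, log axis) by kind of cell. Grey lines span the range, boxes the middle 50% and black bars mark the medians, which lie between 8.75% in muscle-like and 2.12% in erythroid-like wells.

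The shares of the 10 genes varied together from well to well. Every gene had a transcript in 507 of the 933 kept wells, and detection ran from 588 wells for MT-ND5 to 933 for MT-CO2. Over 842 wells with at least 2000 transcripts, the median Spearman rho within plates was 0.398 to 0.888 over the 45 pairs of genes, with a median of 0.720. MT-ND5 and MT-ND3, the genes with the fewest UMIs per well, had the lowest median rho with the other 9 genes (0.554 and 0.645), and MT-CO2 the highest (0.750). The wells of a plate share their library, so these values describe the plates. They are also between shares of one total per well, with all kinds of cell pooled. Globins filled 53.5% of that total in erythroid-like wells and 0.594% in HSPC-like wells. The part of the shared total in the rho values was not tested, and no pairs of other genes were run beside them. Across 22 sums of a kind and a plate, the nuclear genes whose log2 CPM followed the sum of the 10 most closely, out of 454 genes that had 10 counts or more in each of the sums, were ATP5F1A (rho 0.801), OLA1 (0.762), ATP5F1B (0.733), CCT5 (0.726) and ATP5PB (0.723). ATP5F1A and ATP5F1B form the catalytic head of complex V and ATP5PB part of its stalk, CCT5 is a subunit of the cytosolic chaperonin, and OLA1 is an ATPase of the Obg family. The sums share plates and differ in depth and globin content, so the rho values carry no test.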

How the data were processed

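The deposited values were estimated counts of transcripts per gene and well, which the authors made from SORT-seq reads by counting UMIs and correcting for collisions among 4096 possible UMIs. Undoing the correction returned whole numbers of UMIs for 100% of values (tolerance 1e-06). The submitters' notes name BWA, GRCz11 and Seurat, and versions are not given in the sources used here. Spike-ins (6.31% of the transcripts of kept wells) were left out, and 18186 of 23628 genes had a symbol.

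Wells with at least 1000 transcripts were kept. Shares are percentages of the summed transcripts. Kept wells were clustered without the 13 mitochondrially encoded genes (scanpy 1.11.5, 2000 variable genes, 30 principal components, 15 neighbours, Leiden resolution 1, igraph 0.11.9). Clusters were named from marker lists, by at least 3 markers found in 25% of wells and 4-fold above the lower quartile of clusters. At least 1 of these markers had to be among the 10 leading genes. Of 4 clusterings seen at this resolution 1 was kept and the naming rule was changed 2 times, with cluster names, markers and wells per plate and morpholino in view but not the levels of the 10 genes. The kinds are therefore provisional, and no doublet caller was run. One cluster with markers of a second class in more than 2 times the number of its own was left unnamed by the rule.

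Sums per plate and morpholino, or per plate and kind, were rounded and tested by edgeR 4.0.16 (R 4.3.3; quasi-likelihood test, filterByExpr, TMM, plate as a block) with Benjamini-Hochberg adjustment over all genes tested and a threshold of 0.05. An SE given with an edgeR log2 fold change was derived from the test: the fold change without its sign, divided by the square root of the F statistic. DESeq2 1.42.0, other scalings, filters, clusterings and left-out plates were alternatives. Sums within a kind had at least 10 wells, or at least 5 for HSPC-like, cartilage and neural cells. The plate pairs both morpholinos by the labels, and same-plate deviations correlated at 0.179, 0.349, 0.381, 0.344 and 0.108 on plates 1 to 5, although only plates 2 and 4 correlated best with their own number. The sources used here do not say whether each plate had its own clutch or sort. With the plate as a block, p-values set the difference between groups against the variation left between sums once the plate is fitted. The estimate of that variation draws in part on all genes. They do not cover well position. Genes named beyond the 10 were the 3 of smallest p in each list. Genes, lists and comparisons were chosen with earlier results of these data known.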

Additional observations from a re-analysis of the deposited data

Results flagged for a closer look

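On plate 3 the irf8 sum lay far above the other 4 irf8 sums for MT-ATP6 (1.21% of transcripts), MT-CYB (0.925%), MT-ND5 (0.0828%) and all 10 genes together (8.06%). These were 4 of 42 groups of 5 plates examined in this way. The rule flags about 1 in 20 independent groups by chance. Here all 4 flags fell on the same sum, and the groups reuse the same sums and genes that vary together. The count therefore cannot be set against chance.

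Some genes took a part of the mitochondrial pool that moved in opposite directions between kinds of cell, on each of 3 plates. All 10 genes were looked at in every kind with 3 plates, and 3 plates can go the same way by chance. The parts of one total are bound to each other, and the differences between kinds were not tested. Of the transcripts of the 10 genes, the part taken by MT-CO3 differed between irf8 and std cells by 0.989 percentage points in erythroid-like cells, by -1.14 in HSPC-like cells and by -1.04 in cartilage and connective tissue-like cells (irf8 minus std). The part of MT-CYB differed by 0.824 in cartilage and connective tissue-like cells, -0.641 in erythroid-like cells and -1.32 in neural and endocrine-like cells. The part of MT-ND1 differed by 0.572 in neural and endocrine-like cells and -1.17 in erythroid-like cells.

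The wells under 1000 transcripts enter no main comparison, and those of at least 500 enter only the alternative with that minimum. They also held transcripts of the 10 genes, at 9.59% of transcripts in 514 irf8 wells and 9.26% in 473 std wells. By plate and morpholino the share ran from 6.06% in std wells of plate 2 to 13.7% in std wells of plate 3.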

How the results depend on the processing

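Morpholino and well position cannot be told apart, plates 3 and 5 are thin, and sums within a kind rest on 3 plates. The alternatives of library size scaling, scaled clustering, leaving out ribosomal protein genes or the largest well, and every second choice on sums of at least 5 wells were chosen after seeing the data. The difference in the share of all 10 genes stayed above 0 under every alternative run (0.386 to 1.06 percentage points leaving out 1 plate). Leaving ribosomal protein genes out of the total gave a difference of 0.595 ± 1.01 percentage points, with irf8 morphants higher on 3 of 5 plates. In wells of at least 500 transcripts the difference was 0.902 ± 0.841 percentage points, with irf8 morphants higher on 5 of 5 plates. Over all kept cells DESeq2 called 216 genes, no filter on low counts 356 (1 of the 10), at least 10 counts in every sum 114, no replicate block 0 and leaving out the deepest 2% of wells 0, and leaving out 1 plate 0 to 1. MT-ND2 was -0.010 in wells of at least 2000 transcripts and -0.068 without the deepest 2%. Leaving out 1 plate gave ranges through 0 for MT-ATP6 (-0.052 to 0.20), MT-CYB (-0.013 to 0.31), MT-ND1 (-0.0034 to 0.30) and MT-ND2 (-0.10 to 0.21).

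In erythroid-like cells no replicate block gave 0 of the 10, DESeq2 118 genes and 0 of the 10, and leaving out 1 plate 162 to 307 genes and 0 to 3 of the 10, with MT-ATP6 at -0.014 to 0.21, MT-ND1 at -0.37 to 0.18, MT-ND2 at -0.050 to 0.16 and MT-ND5 at -0.25 to 0.19. MT-ND5 was 0.024 with library size scaling. In HSPC-like cells no replicate block gave 6 genes, library size scaling 10, and leaving out 1 plate 23 to 108 genes and 0 to 7 of the 10, with MT-ATP6 at -0.036 to 0.46. DESeq2 called 20 genes in cartilage cells, where leaving out 1 plate gave 0 to 1. In neural cells no replicate block gave 0 genes, DESeq2 3, library size scaling 0 and leaving out 1 plate 0 to 18, with the median of the 10 at -0.058 to 0.56. Among the 10 genes, leaving out the plate block changed no other call within these kinds or over all kept cells. It was not left out between kinds.

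Against erythroid-like cells, library size scaling called all 10 in each of the 4 kinds, with medians of 1.4 in HSPC-like, 1.05 in cartilage (4580 genes) and 1.13 in neural cells (4396 genes). In cartilage cells it turned MT-CO2 to 0.84, MT-CO3 to 0.92, MT-ATP6 to 0.87 and MT-ND4 to 0.75, and in neural cells MT-CO2 to 0.88, MT-CO3 to 0.90, MT-CYB to 1.11, MT-ATP6 to 0.83 and MT-ND4 to 0.75. In HSPC-like cells 1 of the 10 was called at resolution 0.5 (2090 of 6207 genes), at resolution 2 (1571 of 5306) and without globins (2214 of 6374). The median of the 10 there was 0.25 at resolution 2 and 0.027 with scaled clustering. In cartilage cells DESeq2 gave 7 (2283 of 6602 genes), resolution 2 gave 0 (1503 of 5306) and leaving out globins 8 (2369 of 6374). In muscle-like cells DESeq2 gave 1 (1582 of 6602 genes) and resolution 2 gave 5 (1146 of 5306). In neural cells resolution 2 gave 1 (1629 of 5306 genes) and leaving out globins 9 (2391 of 6374). Leaving out 1 plate gave 1318 to 2375 genes for HSPC-like (median of the 10 -0.15 to 0.20), 1426 to 2404 for cartilage (0 to 8 of the 10), 735 to 1654 for muscle-like and 1417 to 2386 for neural cells (0 to 8 of the 10). Resolution 0.5 and scaled clustering gave no muscle-like kind and so no value. The cause of these changes was not tested.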

Other observations

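In a few deep wells some of the 10 genes took up a large part of the UMIs that the method can tell apart for a gene. Among the complex I genes the largest part in any well was 19.7%, for MT-ND4. In 1 epidermis-like std well of plate 3 with 287732 transcripts, MT-CO2 had 2503 UMIs, or 61.1% of all possible UMIs, and MT-CO1 had 1845. The collision correction added 5.73% to the counts of MT-CO1 over all kept wells, and 0.283% to those of MT-ND5. With whole UMIs in place of the corrected values, the share of MT-CO1 was 1.32% ± 0.391 in irf8 morphants and 0.937% ± 0.0799 in std controls (SD, n = 5 plates), higher in irf8 morphants on 5 of 5 plates.

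A cluster of 62 wells, 53 irf8 and 9 std, held erythroid markers together with genes of cell division (kif11 and CENPF, which act at the spindle and the kinetochore) and was left unnamed. Its share of the 10 genes was 2.67% ± 0.0555 over 2 plates, with globins at 48.4% of transcripts, and 5.19% ± 0.277 of the transcripts without globins. A cluster of 43 wells, 31 irf8 and 12 std, led by lens crystallins but with erythroid markers as well, had a share of 4.73% ± 1.55 (n = 3 plates). Neither entered the main comparisons within or between kinds of cell, but the wells of both were part of the sums over all kept wells.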
